A study of Homo sapiens with 35 samples.

Results

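Proteasome assembly chaperones are proteins that help build the proteasome and leave before it works. The 9 genes described here, POMP, PSMG1, PSMG2, PSMG3, PSMG4, PSMD5, PSMD9, PSMD10 and PAAF1, were taken by symbol from the protein-coding entries of the deposited count table, and are 9 of 19665 such entries. All 9 had counts in each of the 35 libraries and passed the filter on low counts. The libraries came from RPMI-8226, an established human multiple myeloma line, and were made from 5 subcultures on each of 7 days. Those days were day 0 and 6 time points, 1 to 10 days, after a pulse of 1 h with carfilzomib, an irreversible inhibitor of the proteasome. The labels give the 750 nM pulse for every library, those of day 0 among them, but by the methods the day 0 cells were harvested ahead of the drug, and they served as the untreated reference. All groups therefore share line and culture. Later days differ from day 0 in the pulse, in the time since it, and in time in culture and handling. No untreated libraries of the later days are among the 35. By the methods, medium was replaced during the course and cell density was adjusted late in it. Effects of these cannot be told apart from those of the pulse. The methods describe the 5 subcultures of a day as divided from 1 expanded culture, whereas legends speak of independent experiments. The p-values measure the spread between the 5 libraries of a day, and how far that spread is technical is not known.

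The 20S core particle is a stack of rings of α and β subunits. PSMG1 pairs with PSMG2, and PSMG3 with PSMG4, to guide the α ring, and POMP then guides the β subunits and becomes the first substrate of the finished core. PSMD5, PSMD9, PSMD10 (gankyrin) and PAAF1 each bind ATPase subunits of the 19S regulatory particle and guide assembly of its base. When proteasomes are inhibited, the transcription factor NRF1 (NFE2L1) is known to raise transcription of proteasome subunit genes, a response termed bounce-back.

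POMP rose on day 1 to 4.39 times its day 0 level and was the one chaperone called past 2-fold. PSMG1, PSMD5 and PSMD10 rose by 1.24 to 1.59 times and PSMG3 fell. The smaller changes called for PAAF1 (1.13 times) and PSMG4 (0.900 times) were lost under several other settings, given with each gene, and PSMG2 and PSMD9 were not called. All genes for constitutive 20S and for 19S subunits were higher on that day. From day 2 on, PSMG2 was higher on all 5 time points, PSMG3 was lower on 4 of them and PSMD9 on 4, while POMP was called on day 2 and on none of the later days. The PSMD9 calls of days 2, 6 and 10 were lost without 1 day 0 library (replicate 1), and that of day 8 was kept.

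Depth was 6519392 to 10962890 counts per library. All 8 plasma cell markers examined were above 1 CPM (counts scaled to the depth of the library) in the median library, with a summed level of 1308 to 2343 CPM. Of the markers of other cells, MS4A1 and PAX5 for B cells, 1 of 3 for T cells (CD3E) and 0 of 3 for myeloid cells were above 1 CPM. The T cell and myeloid sums were 0.588 to 4.81 and 0 to 2.21 CPM, while CD3D and CD2 had no count in 32 libraries each and LYZ none in 28. In bulk RNA, fewer cells of a type and less RNA per cell cannot be told apart. CPM are further scaled by TMM factors (trimmed mean of M values), and a change was called at an adjusted p of at most 0.05 by edgeR's quasi-likelihood test over 17999 protein-coding entries. The comparisons with day 0 share the same 5 day 0 libraries.

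Sequence upstream of the start site was examined because NRF1, as a dimer with a small MAF protein, is known to bind the letters TGANNNNGC, the core of the antioxidant response element. RefSeq promoter windows (GRCh38.p14, 250 bases before to 50 after a start site) were matched by symbol for 8 of the 9 genes, all except PSMG3. TGANNNNGC was found on either strand in windows of 4 of the 8 genes (PSMG1, PSMG2, PSMD5 and PSMD9), beside 41.8% of all 35116 windows. The stricter TGACNNNGC, which is contained in it, was found in the same 4 genes, beside 13.3% of all windows. A gene was counted if any of its windows held the motif, whereas the shares of all windows are per window. PSMG2 has more than 1 window, and the one with its start site at chr18:12703042 lacked TGACNNNGC. CCAAT was present for PSMG1, PSMD10 and PAAF1 (34.6% of all windows), and the heat shock element core GAANNTTC for none of the 8 (6.77% of all windows). Among genes with a window, TGANNNNGC was present for 8 of 10 constitutive 20S subunits, 5 of 9 of the 19S base and 6 of 9 of the lid, and TGACNNNGC for 2 of 10, 4 of 9 and 3 of 9. The windows of POMP and PSMG4 held none of these motifs. Shown here, 5′ to 3′ on the strand of the gene and ended before the outermost annotated transcript start, are the stretches for POMP (the chaperone that rose most on day 1), PSMG1 (the next) and PSMD9 (the one with the most matches), with TGANNNNGC on either strand in capitals. They lie at chr13:28658880-28659064 (plus strand), chr21:39183489-39183701 (minus strand) and chr12:121888540-121888731 (plus strand) of GRCh38.p14.
POMP: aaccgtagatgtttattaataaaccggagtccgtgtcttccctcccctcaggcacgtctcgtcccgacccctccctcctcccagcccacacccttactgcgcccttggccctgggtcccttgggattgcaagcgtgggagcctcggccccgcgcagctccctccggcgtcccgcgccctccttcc
PSMG1: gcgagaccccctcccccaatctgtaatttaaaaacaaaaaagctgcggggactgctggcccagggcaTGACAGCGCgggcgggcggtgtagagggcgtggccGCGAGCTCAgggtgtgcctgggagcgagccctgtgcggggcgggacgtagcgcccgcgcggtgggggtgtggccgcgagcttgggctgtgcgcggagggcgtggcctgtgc
PSMD9: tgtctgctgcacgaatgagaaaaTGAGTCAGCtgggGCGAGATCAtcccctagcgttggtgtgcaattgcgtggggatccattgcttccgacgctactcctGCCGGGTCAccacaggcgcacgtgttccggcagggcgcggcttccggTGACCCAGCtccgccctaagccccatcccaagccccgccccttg
The 4 matches of PSMD9 began 227, 214, 149 and 102 bases before its start site, and the 2 printed matches of PSMG1 at 183 and 148 bases, with another at 12 bases. A match is a stretch of letters and no evidence of binding, and a window without a match says nothing about sites elsewhere.

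Per kilobase of the canonical GENCODE transcript, PSMG4 had the highest level of the 9 on day 0, at 96.1 ± 4.29 CPM per kb (SD, n = 5). It was followed by PSMG2 at 45.0 ± 1.47, PSMD10 at 38.5 ± 3.07, POMP at 32.7 ± 3.59 and PSMG3 at 31.2 ± 2.37 CPM per kb. Lower were PSMD5 at 14.9 ± 0.834, PSMG1 at 14.7 ± 2.11, PAAF1 at 9.31 ± 0.263 and PSMD9 at 4.25 ± 1.15 CPM per kb. The libraries of PSMD10 and POMP, of POMP and PSMG3, and of PSMD5 and PSMG1 overlapped, so that the order within these pairs is not resolved. On day 1 POMP led at 143 ± 7.78 CPM per kb, ahead of PSMG4 at 86.5 ± 5.55. The order depends on the transcript taken for the length: with the median length of the protein-coding transcripts, day 0 levels were 47.8 CPM per kb for PSMD5 and 33.3 for PAAF1, while PSMG4 remained the highest and PSMD9, at 8.14, the lowest. These levels are of the protein-coding entry alone, which held 27.2% of the PSMD9 counts and 38.1% of the PSMG1 counts on day 0. With all entries of a symbol summed, PSMD9 was at 36.1 CPM and PAAF1 at 42.0, over canonical transcripts of 2725 and 4954 bases. PSMG1 was at 57.7 and POMP at 37.4 CPM, over 1754 and 1338 bases. The order of these genes thus also depends on the entries taken.

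**Figure D1:**
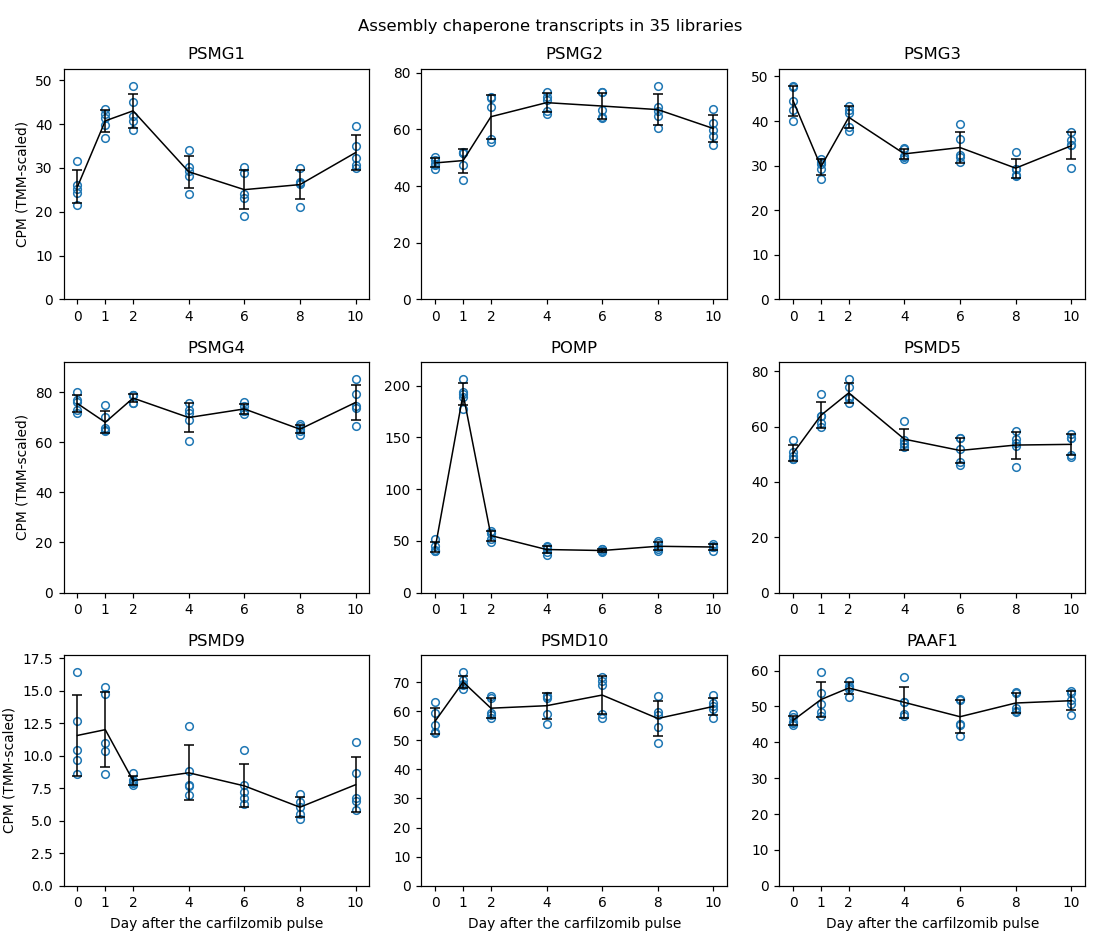
Level of each chaperone in the 35 libraries, in TMM-scaled CPM (vertical axis, from 0 in every panel) by day after the pulse (horizontal axis, 0 is untreated). Circles are libraries, the line joins day means and bars are SD (n = 5). POMP stands at 177 to 207 CPM on day 1 and at 36.4 to 59.9 CPM in the libraries of every other day, while no other panel holds a day that far from the rest.

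POMP (gene ENSG00000132963.9, chr13:28659065-28678959 in the GENCODE release 44 annotation, plus strand) was at 40.1, 40.6, 44.9, 51.7 and 41.6 CPM in the 5 day 0 libraries. On day 1 it was at 177, 189, 192, 207 and 194 CPM, each at least 3 times the highest day 0 library. The log2 fold change was 2.14 ± 0.07 (SE), with an edgeR adjusted p of 4.09e-27. It ranked 169th among the 12301 expressed protein-coding entries by day 1 change, and no other chaperone ranked above 2319th. By day 2 POMP was at 57.7, 59.9, 51.4, 57.8 and 48.6 CPM, with 3 libraries above all those of day 0 and 2 within their range (0.34 ± 0.07, adjusted p = 1.01e-04). From day 4 to day 10 its log2 fold change lay between -0.10 and 0.03, its libraries overlapped those of day 0 and no call was made.

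PSMG1 (ENSG00000183527.12, chr21:39174769-39183488, minus strand), which binds α subunits in a dimer with PSMG2, was at 24.3, 26.0, 21.4, 25.3 and 31.6 CPM on day 0. The day 1 libraries, at 36.8, 42.3, 41.3, 43.4 and 39.9 CPM, were all higher (0.67 ± 0.11, edgeR adjusted p = 1.27e-06). It was higher still by mean on day 2, at 38.8, 45.0, 40.8, 41.8 and 48.8 CPM (0.74 ± 0.11, adjusted p = 1.22e-07), although day 2 and day 1 did not differ at the threshold (adjusted p = 0.596). PSMG1 overlapped day 0 and was not called on days 4, 6 and 8, although without day 0 replicate 5, its highest, the day 4 change was called (0.28, adjusted p = 0.0459). On day 10 it was at 30.0 to 39.6 CPM, with 3 libraries above all of day 0 (0.38 ± 0.11, adjusted p = 0.00531).

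Its partner PSMG2 (ENSG00000128789.22, chr18:12658043-12728945, plus strand) followed another course. It was at 49.1, 47.9, 47.4, 50.3 and 46.2 CPM on day 0 and at 51.6, 51.9, 42.2, 51.8 and 47.5 CPM on day 1, when the groups overlapped (0.03 ± 0.08, adjusted p = 0.831). On day 2 it was at 70.9, 71.5, 67.8, 56.6 and 55.5 CPM, above every day 0 library (0.43 ± 0.07, edgeR adjusted p = 4.25e-06). It stayed above every day 0 library on each later day, and its log2 fold change, 0.53 on day 4, went to 0.50, 0.48 and 0.32 by days 6, 8 and 10. PSMG2 was thus the one chaperone called higher on 5 days, and its only day without a call was day 1, when the subunits were highest.

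PSMG3 (ENSG00000157778.9, chr7:1567332-1571005, minus strand), the PSMG4 partner in the second α ring chaperone, fell on day 1. Its day 0 libraries were at 47.7, 47.9, 44.5, 42.5 and 40.0 CPM and its day 1 libraries at 30.7, 31.5, 29.3, 26.9 and 30.4 CPM, without overlap (-0.58 ± 0.07, edgeR adjusted p = 8.78e-09). On day 2 it was at 37.8 to 43.4 CPM, overlapping day 0 (-0.13 ± 0.07, adjusted p = 0.153), and with the filter on low counts applied this change was called (-0.16, adjusted p = 0.0365). On days 4, 6, 8 and 10 all its libraries were again below those of day 0, with log2 fold changes of -0.45, -0.39, -0.60 and -0.37. An antisense gene, PSMG3-AS1, overlaps PSMG3 by 933 bases in the annotation, and whether strand was used in counting is not given in the sources used here, so reads of the overlap may be shared.

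PSMG4 (ENSG00000180822.12, chr6:3231403-3303373, plus strand) moved less. It was at 79.9, 76.0, 71.5, 72.8 and 77.0 CPM on day 0 and at 64.5, 69.9, 64.9, 65.7 and 74.7 CPM on day 1, with 4 of 5 libraries below the day 0 range (-0.15 ± 0.06, edgeR adjusted p = 0.0266). This small fall does not hold under other settings: it was -0.04 without scaling factors, -0.13 (adjusted p = 0.067) with the libraries of days 0 and 1 alone, 0.056 with entries of all biotypes in the fit, and -0.14 without day 1 replicate 3 (adjusted p = 0.0668) or without day 1 replicate 4 (adjusted p = 0.059). The day 2 change of PSMG4 (0.04) was not called, but it was without scaling factors (0.17, adjusted p = 0.0205) and with entries of all biotypes in the fit (0.23, adjusted p = 0.00802). On day 8 its libraries, at 66.5, 62.9, 64.3, 67.1 and 65.1 CPM, were all below day 0 (-0.21 ± 0.06, adjusted p = 0.00329), a call that was lost with entries of all biotypes in the fit (-0.11, adjusted p = 0.356).

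Among the chaperones of the 19S base, PSMD5 (S5b, ENSG00000095261.14, chr9:120815496-120842951, minus strand) was called higher on days 1 and 2. It was at 48.4, 48.2, 49.5, 55.1 and 50.6 CPM on day 0, at 61.2, 59.7, 63.8, 63.8 and 71.9 CPM on day 1, and at 70.5, 68.5, 74.2, 70.3 and 77.2 CPM on day 2. Neither day overlapped day 0 (day 1, 0.35 ± 0.07, edgeR adjusted p = 3.68e-05; day 2, 0.52 ± 0.07, adjusted p = 1.65e-08). Day 2 was also above day 1 (0.17 ± 0.07, adjusted p = 0.0352). From day 4 the libraries overlapped day 0 and no change was called, but on day 4 a change of 0.19 was called without day 0 replicate 4 (adjusted p = 0.0383) and one of 0.25 without scaling factors (adjusted p = 0.00555).

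PSMD10 (gankyrin, ENSG00000101843.19, chrX:108084207-108091549, minus strand) was at 52.5, 53.0, 55.4, 63.1 and 59.3 CPM on day 0 and at 73.5, 68.9, 70.6, 69.3 and 67.8 CPM on day 1, without overlap (0.31 ± 0.07, edgeR adjusted p = 2.09e-04). On day 6 it was at 57.8, 71.7, 59.0, 68.9 and 70.4 CPM, with 3 libraries above day 0 (0.21 ± 0.07, adjusted p = 0.0139). Without day 6 replicate 2 this call was lost (0.18, adjusted p = 0.0554). PSMD10 was not called on the other 4 days, at 0.02 to 0.13 on the log2 scale, but the day 4 change was called without day 0 replicate 4 (0.19, adjusted p = 0.0325). Without scaling factors it was called on days 2, 4 and 10 (0.24, 0.24 and 0.19). With entries of all biotypes in the fit it was called on days 2 and 4 (0.30 and 0.26). The median of expressed entries on day 2 was itself 0.13 and 0.19 in these fits. With all entries of the symbol summed PSMD10 was called on day 4 (0.18, adjusted p = 0.0334).

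PAAF1 (ENSG00000175575.13, chr11:73876699-73931114, plus strand) was at 45.3, 44.8, 47.0, 47.9 and 45.6 CPM on day 0. It was at 50.6, 47.2, 59.6, 48.5 and 53.6 CPM on day 1, with 4 libraries above day 0 (0.17 ± 0.07, edgeR adjusted p = 0.0325). That call was lost with the filter on low counts, with RLE factors, with DESeq2 (0.14, adjusted p = 0.0802), and without any 1 of 7 libraries (day 0 replicates 1, 2, 4 and 5 and day 1 replicates 1, 3 and 5), which gave 0.12 to 0.17 and adjusted p between 0.0506 and 0.161. The day 2 libraries, at 55.4, 55.8, 57.0, 52.7 and 54.7 CPM, were all above day 0 (0.26 ± 0.07, adjusted p = 0.00114). On days 4, 8 and 10 its changes of 0.15, 0.15 and 0.16 missed the threshold, with adjusted p of 0.0801, 0.0906 and 0.0649, although on day 8 no library overlapped day 0. The day 4 change was called without day 0 replicate 4 or day 4 replicate 2 or 4 (0.18 to 0.19, adjusted p 0.0338 to 0.0492), and the day 10 change without day 0 replicate 4 or day 10 replicate 2 (both 0.19, adjusted p 0.0386 and 0.0453). With the filter on low counts it was called on day 4 (0.15, adjusted p = 0.045) and day 10 (0.16, adjusted p = 0.0402), and in the fit of days 0 and 10 alone on day 10 (0.18, adjusted p = 0.0446). On all 3 days it was called without scaling factors (0.19 to 0.26), with entries of all biotypes in the fit (0.25 to 0.28) and with all entries of the symbol summed (0.18 to 0.20).

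PSMD9 (p27, ENSG00000110801.14, chr12:121888732-121918297, plus strand) had the lowest counts of the 9, at 29 to 117 per library, and the widest relative spread. It was at 16.5, 9.68, 8.58, 10.4 and 12.7 CPM on day 0 and at 7.75, 8.15, 7.89, 8.02 and 8.65 CPM on day 2, when 4 libraries lay below all of day 0 (-0.52 ± 0.18, edgeR adjusted p = 0.0161). Replicate 1 had the highest day 0 value, and without it the day 2 change was -0.37 (adjusted p = 0.107), while the changes of -0.60 on day 6 and -0.59 on day 10 became -0.43 (adjusted p = 0.0819) and -0.41 (adjusted p = 0.111). These 3 calls were also lost with entries of all biotypes in the fit (-0.33, -0.53 and -0.49), and that of day 2 without scaling factors (-0.40). On day 8 all libraries, at 6.46, 7.03, 5.11, 6.06 and 5.55 CPM, lay below those of day 0 (-0.94 ± 0.19, adjusted p = 1.02e-04). The day 4 change of -0.43 (adjusted p = 0.0657) was called without day 4 replicate 5 (-0.55, adjusted p = 0.0181) or day 0 replicate 3 (-0.52, adjusted p = 0.0294).

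**Figure D2:**
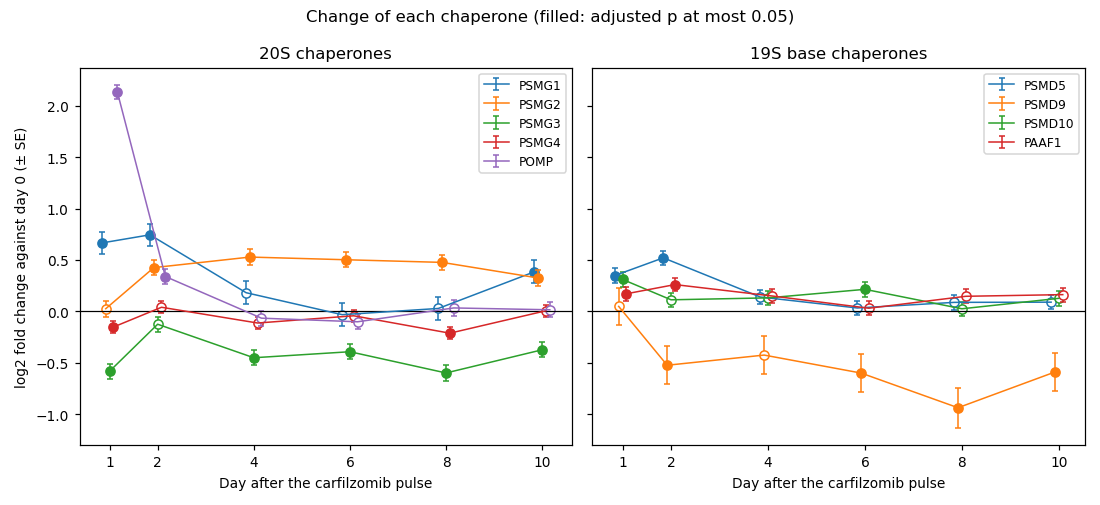
Change of each chaperone against day 0 (vertical axis, log2 fold change from the edgeR fit, bars are SE) by day after the pulse (horizontal axis), with the 20S chaperones on the left and those of the 19S base on the right. Filled points have an adjusted p of at most 0.05. POMP peaks at 2.14 on day 1, PSMG2 stays between 0.32 and 0.53 from day 2, and PSMD9 reaches -0.94 on day 8.

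Counted over the 9 genes, 7 were called on day 1, 5 higher and 2 lower, in a comparison in which 52.7% of all protein-coding entries were called (25.4% higher, 27.3% lower). With a fold change above 2 also required, 1 of 9 was called on day 1, beside 20.4% of all entries, and 0 of 9 on each later day, beside 15.3%, 9.41%, 6.71%, 8.18% and 5.93% in order of day. On day 2, 5 were higher and 1 lower (47.7% of all entries called, 23.2% higher and 24.4% lower). On day 4, 1 was higher and 1 lower (39.1% called, 19% higher and 20.1% lower). On day 6, 2 were higher and 2 lower (34.5% called, 17.5% and 17%). By day 8, 1 was higher and 3 were lower (36.8% called, 18.2% and 18.6%). By day 10, 2 were higher and 2 lower (31.9% called, 16.1% and 15.8%). The number of chaperones whose libraries did not overlap those of day 0 was 5, 4, 2, 2, 5 and 2 in order of day, beside 40.9%, 36.7%, 28.2%, 24.7%, 25.2% and 22.8% of all entries. The median log2 change of the chaperones was 0.17 on day 1, where it was 0.01 over the expressed protein-coding entries, and 0.26, 0.13, -0.03, 0.03 and 0.09 at the later time points.

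The day 4 count was the least settled. It was 5 without day 0 replicate 4, 6 without scaling factors and 5 with entries of all biotypes in the fit, against 2 as given, and 6 with all entries of a symbol summed. Without scaling factors the median change of expressed entries on day 4 was itself 0.11, and in the fit with all biotypes 0.13, and the changes of PSMD5 (0.25 and 0.27) and PSMD10 (0.24 and 0.26) in these fits are to be read against that shift.

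**Figure D3:**
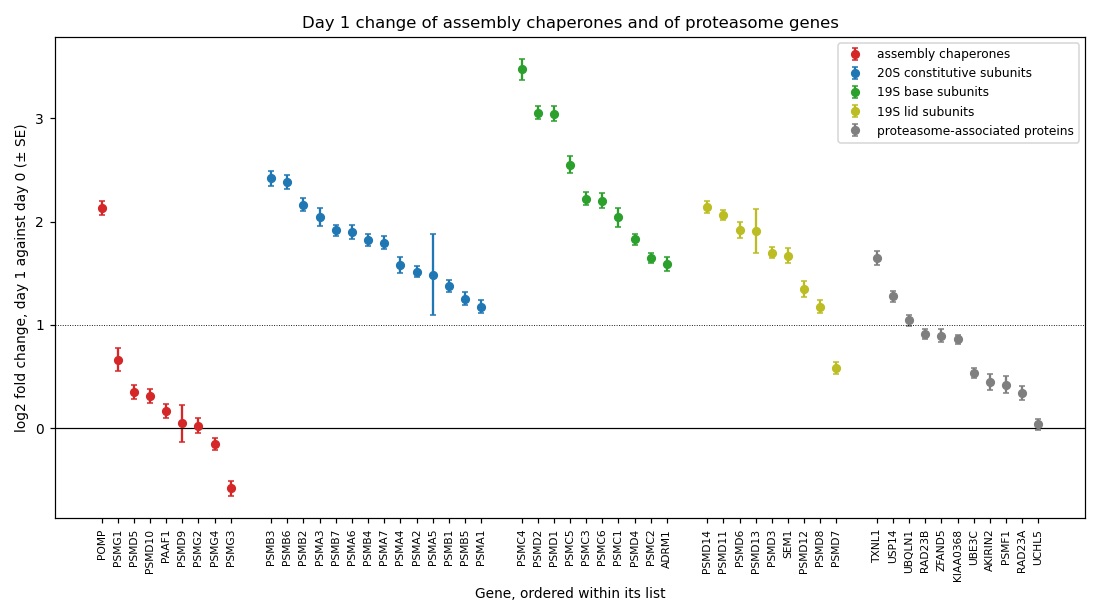
Change on day 1 against day 0 (vertical axis, log2 fold change ± SE) of each chaperone and of each gene in 4 lists of proteasome genes (horizontal axis, ordered within a list). The dotted line marks a 2-fold rise. POMP, at 2.14, lies within the range of the 20S subunits (1.18 to 2.42), and each of the other 8 chaperones lies at or below 0.67.

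The subunits that the chaperones assemble moved differently on day 1. All 14 constitutive 20S subunit genes were called higher and past 2-fold, from PSMA1 at 1.18 to PSMB3 at 2.42 (median 1.81). All 10 genes of the 19S base were as well, from ADRM1 at 1.59 to PSMC4 at 3.47 (median 2.21), and all 9 of the lid were called higher, 8 of them past 2-fold (median 1.70). Of 11 genes for proteasome-associated proteins 10 were higher (median 0.86), and of 3 inducible 20S subunit genes 2 were. In the list of the NRF1 pathway 4 of 9 were higher and 4 lower, from VCP at 1.77, the segregase that extracts NRF1 from the ER, to NFE2L1 itself at -1.20. By day 2 the medians were 0.33 for the 20S subunits, 0.53 for the 19S base and 0.14 for the lid, beside 0.26 for the chaperones.

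Over the 35 libraries, the 3 genes whose log2 CPM was most like that of POMP, of 12300 compared, were ANXA2 (r = 0.988), the 19S base ATPase PSMC4 (r = 0.988) and the 20S subunit PSMB2 (r = 0.986). Of its 20 nearest genes 12 were 20S or 19S subunits, and of the 20 nearest of each of the other 8 chaperones none was. PSMG4 was closest to its partner PSMG3 (r = 0.714), then to CAD (0.690) and DUS1L (0.677), and PSMG3 to DUS1L (0.863), SDCCAG3 (0.853) and SEC61A1 (0.846). PSMG1 and PSMG2 had r = -0.20. PSMG1 was closest to DLAT (0.884), UBE3C (0.882) and KPNB1 (0.879), and FAM3B (0.895) and ITM2C (0.894) were among the 3 nearest to PSMG2. For PSMD5 these were NUP155 (0.886), PPIP5K2 (0.878) and R3HDM1 (0.873), for PSMD9 LMTK2 (0.776), RP4-548D19.5 (0.732) and PCNX3 (0.728), for PSMD10 COPS2 (0.776), ZC3H15 (0.759) and HINT1 (0.694), and for PAAF1 LSM4 (0.693), PSTPIP2 (0.691) and UBE2E3 (0.686). Among the chaperones themselves r ranged from -0.57 (PSMG2 and PSMD9) to 0.76 (PSMG1 and PSMD5). These values describe libraries that share days and scaling factors.

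Whether a chaperone kept pace with the protein it binds was examined within each library, as the ratio of the counts of both genes, which does not depend on scaling. Counts were not divided by transcript length here, so the change of a ratio is read and not its size. Of 42 comparisons (7 pairs on 6 days), 21 had an adjusted p of at most 0.05 by an exact two-sided permutation test of 5 against 5 libraries. The smallest p such a test can give is 0.00794, or 0.0185 after adjustment. A limma fit of the same log2 ratios, added after the data had been seen, called all 21 and 8 more, with and without the replicate block. How often ratios of other gene pairs would be called was not tested, so these counts have no background share. Many single genes changed: on day 1, 52.7% of all protein-coding entries were called against day 0 by edgeR, and 40.9% did not overlap day 0. A called ratio alone therefore does not set a pair apart from other genes.

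The PSMG1 to PSMG2 ratio was 0.496, 0.544, 0.454, 0.503 and 0.684 on day 0 and 0.713, 0.815, 0.980, 0.838 and 0.840 on day 1, higher in 5 of 5 libraries and by 1.57 times (adjusted exact permutation p = 0.0185). It then turned over. On day 6 it was 0.685 times and on day 8 0.735 times the day 0 ratio, below every day 0 library (adjusted exact permutation p = 0.0185 for both), and on day 10 it was 1.04 times that ratio (adjusted exact permutation p = 0.675). The day 2 change (1.26 times) was called without day 0 replicate 5 (adjusted exact permutation p = 0.0303) and the day 4 change (0.787 times) without day 4 replicate 5 (0.0318).

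The PSMG3 to PSMG4 ratio was 0.597, 0.631, 0.623, 0.585 and 0.521 on day 0 and 0.477, 0.451, 0.452, 0.411 and 0.408 on day 1, lower in 5 of 5 libraries. It was 0.744 times the day 0 ratio on day 1, 0.765 times on day 8 and 0.771 times on day 10 (adjusted exact permutation p = 0.0185 each). On days 4 and 6 it was 0.795 and 0.786 times (adjusted exact permutation p = 0.0333 each), with 4 of 5 libraries below day 0, and without any of 8 of the 10 libraries on either day the adjusted p was 0.0556 to 0.0667, while the log2 change stayed at -0.30 to -0.36, against -0.33 and -0.35 with all libraries. On day 2 it was 0.892 times (adjusted exact permutation p = 0.0606), and 0.0303 without day 0 replicate 5.

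The POMP to PSMB5 ratio compares the β ring chaperone with the chymotrypsin-like subunit that carfilzomib binds. It was 0.708, 0.724, 1.01, 0.928 and 0.772 on day 0 and 1.43, 1.46, 1.55, 1.51 and 1.55 on day 1, higher in 5 of 5 libraries and by 1.83 times, since PSMB5 rose less than POMP (adjusted exact permutation p = 0.0185). On the log2 scale PSMB5 rose by 1.26 and POMP by 2.14. Of the other β subunit genes, PSMB1 (1.37), PSMB4 (1.82) and PSMB7 (1.92) also rose less than POMP. PSMB2 (2.16), PSMB6 (2.38) and PSMB3 (2.42) rose as much or more, so the gain depends on the subunit taken. On day 6 the POMP to PSMB5 ratio was 0.784 times the day 0 ratio and below every day 0 library (adjusted exact permutation p = 0.0185). POMP was not called on that day (-0.10), and PSMB5 (0.25) was the 1 of 14 constitutive 20S genes called higher (median 0.02). This fall too thus depends on the subunit taken. The day 4 change (0.847 times) was called without day 4 replicate 4 (adjusted exact permutation p = 0.0333).

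For the 4 chaperones of the 19S base the ratio to the ATPase each binds fell on day 1 in 5 of 5 libraries (adjusted exact permutation p = 0.0185 for each pair). PSMD10 to PSMC4 was 1.40, 1.99, 1.64, 1.55 and 1.64 on day 0 and 0.202, 0.179, 0.179, 0.168 and 0.180 on day 1, a ratio 0.111 times that of day 0. PAAF1 to PSMC5 went from 0.610 to 0.800 down to 0.122 to 0.149 (0.191 times), PSMD9 to PSMC3 from 0.141 to 0.247 down to 0.0299 to 0.0528 (0.223 times), and PSMD5 to PSMC2 from 0.442 to 0.508 down to 0.175 to 0.216 (0.406 times). So each of these chaperones had fewer transcripts per transcript of its partner on the day when the partner was highest. The partners rose, by 3.13 (PSMC2), 4.66 (PSMC3), 5.87 (PSMC5) and 11.1 times (PSMC4). The chaperones did not fall, at 1.03 (PSMD9), 1.13 (PAAF1), 1.24 (PSMD10) and 1.27 times (PSMD5) their day 0 level. The day 1 falls of these ratios follow from those changes of the single genes and are not a separate result.

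On day 2 the 4 pairs parted. PSMD10 to PSMC4 (0.623 times the day 0 ratio), PAAF1 to PSMC5 (0.677 times) and PSMD9 to PSMC3 (0.463 times) were still below every day 0 library, and PSMD5 to PSMC2, at 1.30 times, was above every one of them (adjusted exact permutation p = 0.0185 for each). On the log2 scale PSMD5 rose by 0.52 on day 2. The ATPase genes PSMC2 (0.14), PSMC1 (0.25) and PSMC6 (0.34) rose less than PSMD5. PSMC3 (0.63), PSMC4 (0.80) and PSMC5 (0.83) rose more, so this gain depends on the ATPase taken. With all biotypes of a symbol summed, the day 2 change of PSMD10 to PSMC4 was -0.19 in place of -0.68 on the log2 scale and was not called (adjusted exact permutation p = 0.0606), and that of PAAF1 to PSMC5 was -0.25 in place of -0.56 (0.0152). PSMD5 to PSMC2 was also higher on day 4 (1.23 times, adjusted exact permutation p = 0.0185) and on day 6 (1.21 times, adjusted exact permutation p = 0.0476, and 0.0606 to 0.0909 without any of 9 of the 10 libraries). PSMC2 itself was called lower by edgeR on days 4 and 6 (-0.17 and -0.25), while PSMD5 was not called (0.14 and 0.03). On day 8, PSMD9 to PSMC3 was 0.578 times the day 0 ratio and below every day 0 library (adjusted exact permutation p = 0.0185). From day 4 on, the pairs of PSMD10 and of PAAF1 were not called on any day in the protein-coding entries, at 0.895 to 1.07 times the day 0 ratio, except that PSMD10 to PSMC4 was called on day 8 without day 0 replicate 1 (adjusted exact permutation p = 0.0351). With biotypes summed both pairs were instead higher on some of these days, PSMD10 to PSMC4 by 0.31, 0.54, 0.25 and 0.22 on the log2 scale on days 4, 6, 8 and 10, and PAAF1 to PSMC5 by 0.25 on day 8 and 0.26 on day 10 (adjusted exact permutation p of 0.0152 to 0.0345). Other calls were made without 1 library for PSMD5 to PSMC2 on day 8 (day 8 replicate 5) and for PSMD9 to PSMC3 on days 4, 6 and 10 (day 4 replicate 5, day 6 replicate 2 and day 10 replicate 1), at adjusted exact permutation p of 0.0318 to 0.0333.

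**Figure D4:**
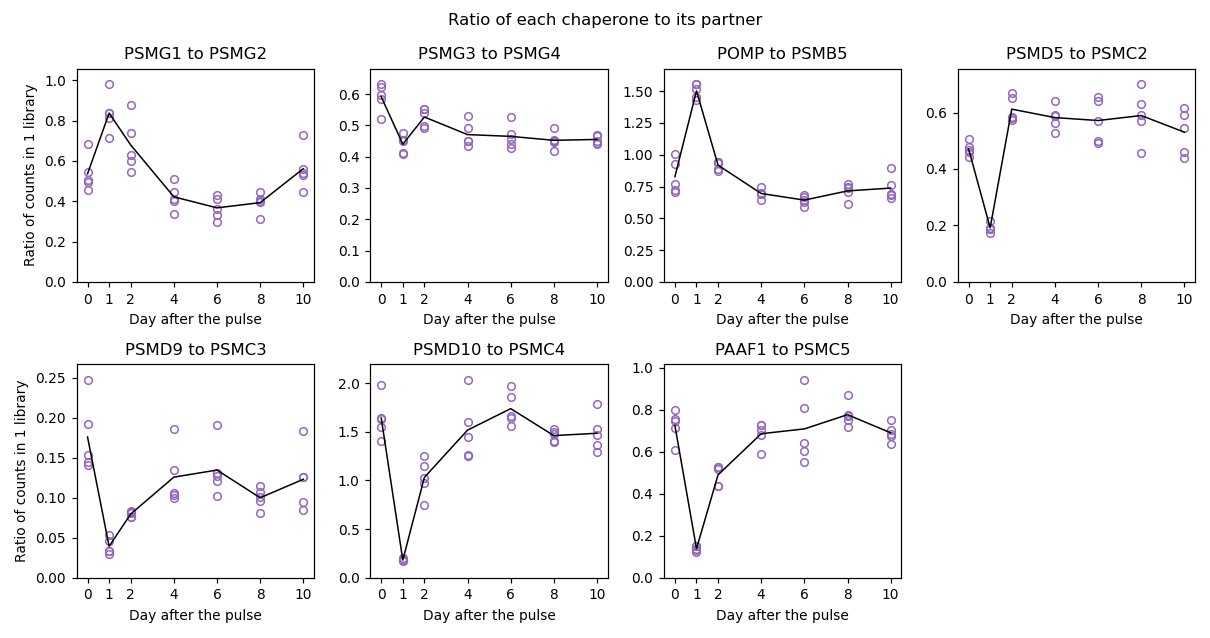
Ratio of the counts of each chaperone to those of its partner in the 35 libraries (vertical axis, from 0, not divided by length) by day after the pulse (horizontal axis). Circles are libraries and lines join day means. The 4 ratios to 19S ATPases fall on day 1, PSMD10 to PSMC4 to 0.168 to 0.202, while those of PSMG1 to PSMG2 and POMP to PSMB5 rise.

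Between consecutive time points, 7 of 9 genes were called from day 1 to day 2, beside 39.6% of all entries (20.2% higher, 19.4% lower). PSMG2 (0.40), PSMG3 (0.46), PSMG4 (0.19) and PSMD5 (0.17) were higher, and POMP (-1.80), PSMD9 (-0.57) and PSMD10 (-0.20) were lower. From day 2 to day 4, 5 genes were lower (30.6% of all entries called, 13.9% higher and 16.7% lower), namely PSMG1 (-0.56), POMP (-0.41), PSMD5 (-0.38), PSMG3 (-0.33) and PSMG4 (-0.15). None was called by edgeR from day 4 to day 6, where 12.1% of all entries were, with 0 at an unadjusted p below 0.05 and 0 by DESeq2. None was called from day 6 to day 8 either (2.56% of all entries), with 3 at an unadjusted p below 0.05 and 0 by DESeq2. From day 8 to day 10, PSMG1 (0.36), PSMG3 (0.23) and PSMG4 (0.22) were higher (10.1% of all entries called, 5.08% higher and 4.97% lower). That last count was 1 without day 10 replicate 1, 4 or 5, and 1 when the libraries of the 2 days were fitted alone.

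The table lists transcripts of a gene apart by biotype, so the same symbols had 14 further entries, 13 with counts, tested in a fit over all 65717 entries with a count. In that fit expressed protein-coding entries had a median change of 0.22 on day 1, so its changes are to be read against that shift. On day 1, 5 of the 13 were called, beside 12.5% of entries that are not protein coding. The PSMG1 entry for nonsense-mediated decay, the pathway that removes transcripts with an early stop, went from 18.1 to 22.4 CPM on day 0 to 32.6 to 36.6 CPM on day 1 (0.79 ± 0.09, edgeR adjusted p = 1.25e-09), and the PSMG1 retained intron entry rose by 0.49 ± 0.14 (adjusted p = 0.00895). On day 2 both were called higher too, at 0.58 and 0.47, and were the 2 of 13 called (9.76% of entries that are not protein coding). All 3 PSMG1 entries thus rose on days 1 and 2, and the protein-coding entry held 38.1% ± 3.28 of the symbol's counts on day 0 and 41.1% ± 1.69 on day 1 (SD, n = 5).

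The protein-coding entry of PSMD9 held 27.2% ± 5.88 of that symbol's counts on day 0 and 24.2% ± 7.02 on day 1 (SD, n = 5), the lowest share of the 9. Its entry for nonsense-mediated decay went from a mean of 18.9 to 29.7 CPM on day 1, with 4 of 5 libraries above all of day 0 (0.66 ± 0.14, edgeR adjusted p = 2.73e-04), when the protein-coding entry was not called (0.25 ± 0.19 in the same fit, adjusted p = 0.417). With all entries of the symbol summed, an alternative chosen after the data had been seen, PSMD9 rose by 0.33 ± 0.07 on day 1 (adjusted p = 9.71e-05), fell by 0.35 on the log2 scale on day 4 (adjusted p = 1.35e-04) and by 0.45 on day 8 (adjusted p = 2.08e-06). In that fit it was also called lower on day 2 (-0.21, edgeR adjusted p = 0.0162), day 6 (-0.23, adjusted p = 0.0108) and day 10 (-0.25, adjusted p = 0.00578). Of the other entries called on day 1, the retained intron entries of PSMG2 (-1.41 ± 0.45, adjusted p = 0.0151) and PAAF1 (-1.09 ± 0.38, adjusted p = 0.0304) were lower, at means of 0.899 and 1.05 CPM. Entries were called on none of days 4, 6 and 8 by edgeR, beside 7.24%, 5.87% and 6.32% of entries that are not protein coding, with 3, 2 and 3 at an unadjusted p below 0.05. On day 10 the PSMG2 retained intron entry was again lower (-1.35, adjusted p = 0.0377, beside 4.77%). POMP and PSMG3 have a protein-coding entry alone.

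**Figure D5:**
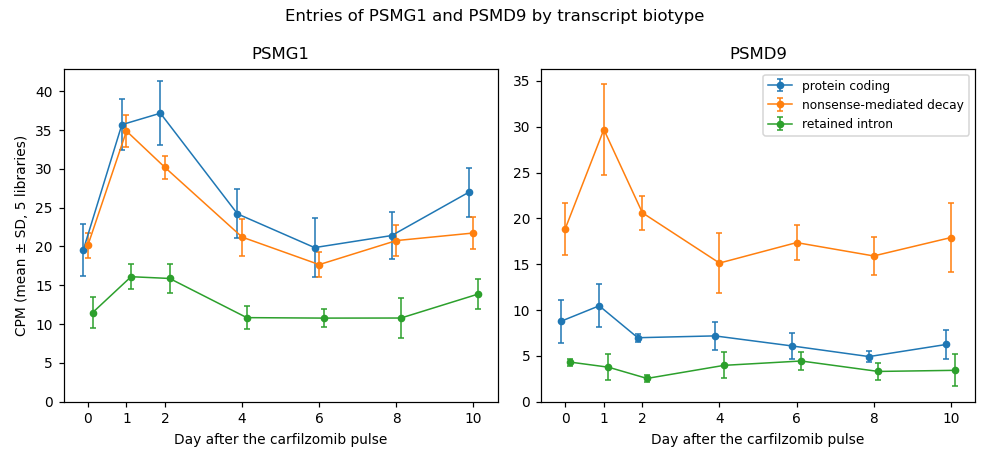
Level of the entries of PSMG1 (left) and PSMD9 (right) by transcript biotype, in CPM of the fit over all entries (vertical axis, mean ± SD of 5 libraries), by day after the pulse (horizontal axis). The 3 entries of PSMG1 rise together on day 1, while for PSMD9 the entry for nonsense-mediated decay goes from 18.9 to 29.7 CPM and the protein-coding entry from 8.77 to 10.5 CPM.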

How the data were processed

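RNA of RPMI-8226 cells was sequenced in 35 libraries, 5 for each of 7 days. The authors deposited 1 table of estimated counts per gene symbol and transcript biotype, made with Kallisto 0.44.0 on GENCODE release 28 with adjustment for GC content and gathered with tximport. By the methods, gene length was adjusted for in that last step. Whether the deposited counts carry this adjustment is not known, which also bears on the levels per kilobase. These estimated counts are whole numbers without scaling for depth. No reads were realigned. The submitters' processing notes name kallisto 0.44.0, DESeq2 1.25.8 and R 3.5.0.

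The 17999 protein-coding entries with a count (of 19665) went into 1 model of edgeR 4.0.16 in R 4.3.3 (quasi-likelihood, glmQLFit and glmQLFTest). It held the 35 libraries with day as the only factor, TMM factors of 0.929 to 1.08 and rounded counts. Within a comparison, p-values of all entries were adjusted by Benjamini-Hochberg. A change was called at an adjusted p of at most 0.05. SE are of the log2 fold change. Depth differed by less than 2-fold between libraries and sets the precision of PSMD9, the gene with the fewest counts. Partner ratios added 0.5 to each count and were tested with exact permutation tests (scipy 1.17.1) with Benjamini-Hochberg adjustment over 42 tests. Motifs were searched in RefSeq windows, and gene positions are those of GENCODE release 44 on GRCh38. The methods were tested on simulated data.

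The 9 genes and the other lists, which were written from general knowledge, were chosen with earlier results of these data known. All 9 are described, with the genes of partner pairs, the 3 nearest genes by correlation, and the highest and lowest gene of each list on day 1. Similarity to a gene was Pearson's r of log2 CPM over the 12301 entries that passed filterByExpr. Alternatives were filterByExpr, RLE factors, no scaling factors, the replicate number as a block, DESeq2 1.42.0, a fit of 2 days alone, entries of all biotypes, a 2-fold limit, another pseudocount, medians and limma 3.58.1 for the ratios, and each library left out in turn. No 2 libraries of a day were duplicates. No batch or date is given in the sources used here. The authors' other data types were not analysed here. Values of a few genes are not reported here.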

Additional observations from a re-analysis of the deposited data

Results flagged for a closer look

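The libraries of each day were examined gene by gene for 1 library far from the other 4. Of 63 groups (9 chaperones on 7 days) 1 stood out, where chance would mark about 1 in 20. The day 4 level of PSMD5 was 62.0 CPM in replicate 5, with the other 4 libraries at 52.6 to 55.0 CPM and a gap of 0.745 of the range, above the limit of 0.71 for 5 libraries. Of 49 groups of partner ratios, none stood out.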

How the results depend on the processing

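With a fold change above 2 required, 1 chaperone was called on day 1 and 0 on each later day. The day 4 count of 2 became 6 without scaling factors, 5 with all biotypes in 1 fit and 6 with all biotypes of a symbol summed, an alternative chosen after the data had been seen. Leaving out 1 library gave 2 to 5 on day 4 and 1 to 3 from day 8 to day 10, where a fit of the 2 days alone gave 1. The filter on low counts gave 1 other biotype entry on each of days 4, 6 and 8, against 0. The change of PSMG4 on day 1 turned to 0.056 with all biotypes in 1 fit, where the median of expressed entries shifted by 0.22.

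For the partner ratios, medians gave 0 called on all 6 days, where no call was possible, since the smallest p of a median test is 0.0476 (0.0909 adjusted), and the 21 changes kept their direction at 0.751 to 1.24 times their size. Leaving out 1 library gave 1 to 3 on day 4, 2 to 3 on day 6 and 1 to 2 on day 10. Summed biotypes gave 5 on day 4, 5 on day 8 and 4 on day 10, and turned PSMD10 to PSMC4 to 0.31, 0.25 and 0.22 (days 4, 8 and 10) and PAAF1 to PSMC5 to 0.26 (day 10), ratios not called as given. The limma fit gave 5, 5 and 2 on days 4, 8 and 10, with and without the block. The cause of these changes was not tested.

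With the replicate block, counts on days 1 to 10 stayed at 7, 6, 2, 4, 4 and 4, the count from day 8 to day 10 was 2 against 3, and all 54 changes against day 0 kept their direction and side of the threshold. Same-numbered libraries of day 0 and a later day showed no likeness, with r of -0.067 to 0.074 and 8 of 30 matching their own number best. This does not show whether the same subcultures were sampled on every day. For the ratios, limma with the replicate block, added after the data had been seen, called 29 of 42, as did limma without it, among them all 21 of the permutation test. Of the leave-one-out values of the chaperone changes against day 0, 517 kept their call, 10 gained and 13 lost it. Of those of the partner ratios, 386 kept it, 9 gained and 25 lost it. Counts of PSMD9 limit its precision, and subcultures of 1 line measure no wider spread.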
